A study of Mus musculus with 30 samples.

Results

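Polyamine metabolism was followed through 8 listed genes, Odc1, Amd1, Srm, Sms, Sat1, Smox, Azin1 and Oaz1, in the preputial gland of male mice that ate benzo[a]pyrene (BaP), a carcinogen from combustion. The set was selected on measured values in part: Odc1 was known to be lower in the Cyp1a1 knockout arrays when the genes were listed, so that contrast, and every comparison of Odc1 levels between genotypes, is given as a description without a test. Of the 8 genes, 7 had a probe set, among 18784 genes with one in all, and Amd1 was not analysed here. Preputial glands are paired modified sebaceous glands. Expression was read from 30 arrays in 15 groups of 2 mice, formed by 3 genotypes and 5 durations of the diet (0, 4, 8, 12 and 16 weeks), in a study of squamous cell carcinoma arising in the duct of the gland. On the B6 background there were wild-type mice (WT), mice that lack Cyp1a1 (Cyp1a1 KO) and mice that lack Cyp1a1 and Cyp1b1 (Cyp1a1/1b1 DKO). Every group came from the same regimen, begun at 6 weeks of age with food soaked in corn oil that delivered about 12.5 mg/kg of BaP a day. Mice taken at week 0 were the unexposed controls of each genotype, and mice at later weeks were also older, so exposure and age cannot be told apart. Knockout alleles were not described further in the labels, and no group of unexposed mice was taken at the later weeks.

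Polyamines are small positively charged molecules (putrescine, spermidine and spermine) that bind nucleic acids and are needed for cell growth. Ornithine decarboxylase (Odc1) makes putrescine from ornithine, and S-adenosylmethionine decarboxylase (Amd1) supplies the aminopropyl donor with which spermidine synthase (Srm) and spermine synthase (Sms) build the longer molecules. Antizyme (Oaz1) binds ornithine decarboxylase and sends it to the proteasome, antizyme inhibitor (Azin1) holds antizyme away from the enzyme, and Sat1 and Smox act in breakdown, by acetylation and by oxidation of spermine. Induction of ornithine decarboxylase is a classic response of mouse skin to tumor promoters. Much of the control of ornithine decarboxylase, antizyme and S-adenosylmethionine decarboxylase is exerted on translation or protein turnover, which RNA levels do not show.

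BaP acts through the aryl hydrocarbon receptor, which binds DNA elements built on the core GCGTG, and Odc1 is a textbook target of MYC, which binds the E-box CACGTG. The stretch upstream of the annotated start of Odc1 is shown because Odc1 carried the largest difference of the set. It lies on chromosome 12 of GRCm38.p6 (RefSeq), chr12:17544623-17544807, plus strand, 185 bases, with GCGTG on either strand in capitals (CACGC is the same core on the opposite strand).
Odc1 upstream: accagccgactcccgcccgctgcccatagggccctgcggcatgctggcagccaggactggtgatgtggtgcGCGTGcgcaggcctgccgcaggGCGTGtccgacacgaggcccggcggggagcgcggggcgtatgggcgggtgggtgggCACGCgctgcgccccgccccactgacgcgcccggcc
This stretch held 3 GCGTG cores, none overlapping another, and 0 CACGTG. The rest of the gene was not searched beyond the window described next, so CACGTG elsewhere in Odc1 is not excluded. A promoter window of 300 bases (250 before and 50 after a listed start) was listed for 6 of the 8 genes, with 7 windows because Sms had 2. The Odc1 window begins at the same base as the stretch above, so its listed start differs from the annotated one. Searched on both strands, the Oaz1 window held 3 GCGTG cores, one Sms window 3 and the other a single CACGTG, and the Amd1 window 1 GCGTG. The Sat1 and Smox windows held 0 of either. Of 32851 listed mouse promoters of this length, 32.4% held GCGTG and 7.15% held CACGTG, and a match of letters describes the sequence only.

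The arrays differed in their overall range of values. For 21 arrays the log2 values of all probe sets had a standard deviation of 1.70 to 2.08, and for the other 9, called narrow-range below, of 1.15 to 1.42. Narrow-range were all DKO-labelled arrays but those of week 0 replicate 1 and week 12 replicate 2, and from Cyp1a1 KO the second replicate of week 12. The number in each array's label ran from 1 to 10 in WT and was 11 to 19 and 30 in Cyp1a1 KO. In DKO it was 20, 22 to 28, 31 and 33. Genotype and label number thus cannot be told apart between WT and Cyp1a1 KO, nor for most arrays labelled DKO. The ranges used as a block below, 1 to 20 and 22 to 33, hold WT and most Cyp1a1 KO arrays together, so that block does not separate them. Cyp1a1 log2 intensity had medians of 4.45, 4.00 and 4.58 in WT, KO and DKO. Cyp1b1 was higher in arrays labelled DKO (7.48 to 10.57) than in WT (6.17 to 6.77) although the label names it as deleted. Where these probe sets lie relative to the deleted sequence was not used here, so neither gene checks the labels.

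Averaged over the 5 weeks, Odc1 RNA was highest in WT glands, lower in Cyp1a1 KO and lowest in the arrays labelled DKO. By weekly means, DKO lay below Cyp1a1 KO at weeks 4, 8 and 12 and above it at weeks 0 and 16. All values below are log2 intensities, on which a difference of 1 is a doubling of intensity, and the 10 arrays of a genotype span 5 weeks. In WT the replicates read 8.60 and 9.74 at week 0, 8.75 and 8.47 at week 4, 8.27 and 8.22 at week 8, 9.80 and 8.96 at week 12, and 8.35 and 8.68 at week 16. In Cyp1a1 KO they read 7.08 and 7.68, 7.69 and 8.12, 7.62 and 7.38, 7.70 and 7.04, and 6.63 and 5.41 at the same weeks. In arrays labelled DKO they read 8.09 and 6.92, 6.25 and 5.55, 5.49 and 5.005, 6.70 and 7.21, and 6.80 and 5.80. Every WT array lay above every array of the other genotypes, while the Cyp1a1 KO and DKO arrays overlapped.

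Odc1 averaged 8.78 ± 0.57 in WT, 7.24 ± 0.77 in Cyp1a1 KO and 6.38 ± 0.94 in arrays labelled DKO (SD, n = 10 each). The Cyp1a1 KO mean lay below WT by a log2 difference of -1.55, which is 2.93-fold in linear intensity. By week the difference was -1.79 at week 0, -0.71 at week 4, -0.75 at week 8, -2.01 at week 12 and -2.49 at week 16. It was thus present before any BaP and largest at the last week, where 1 of the KO arrays read 5.41. Leaving out any single array kept it between -1.67 and -1.43. Without the narrow-range array it was -1.48.

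**Figure D1:**
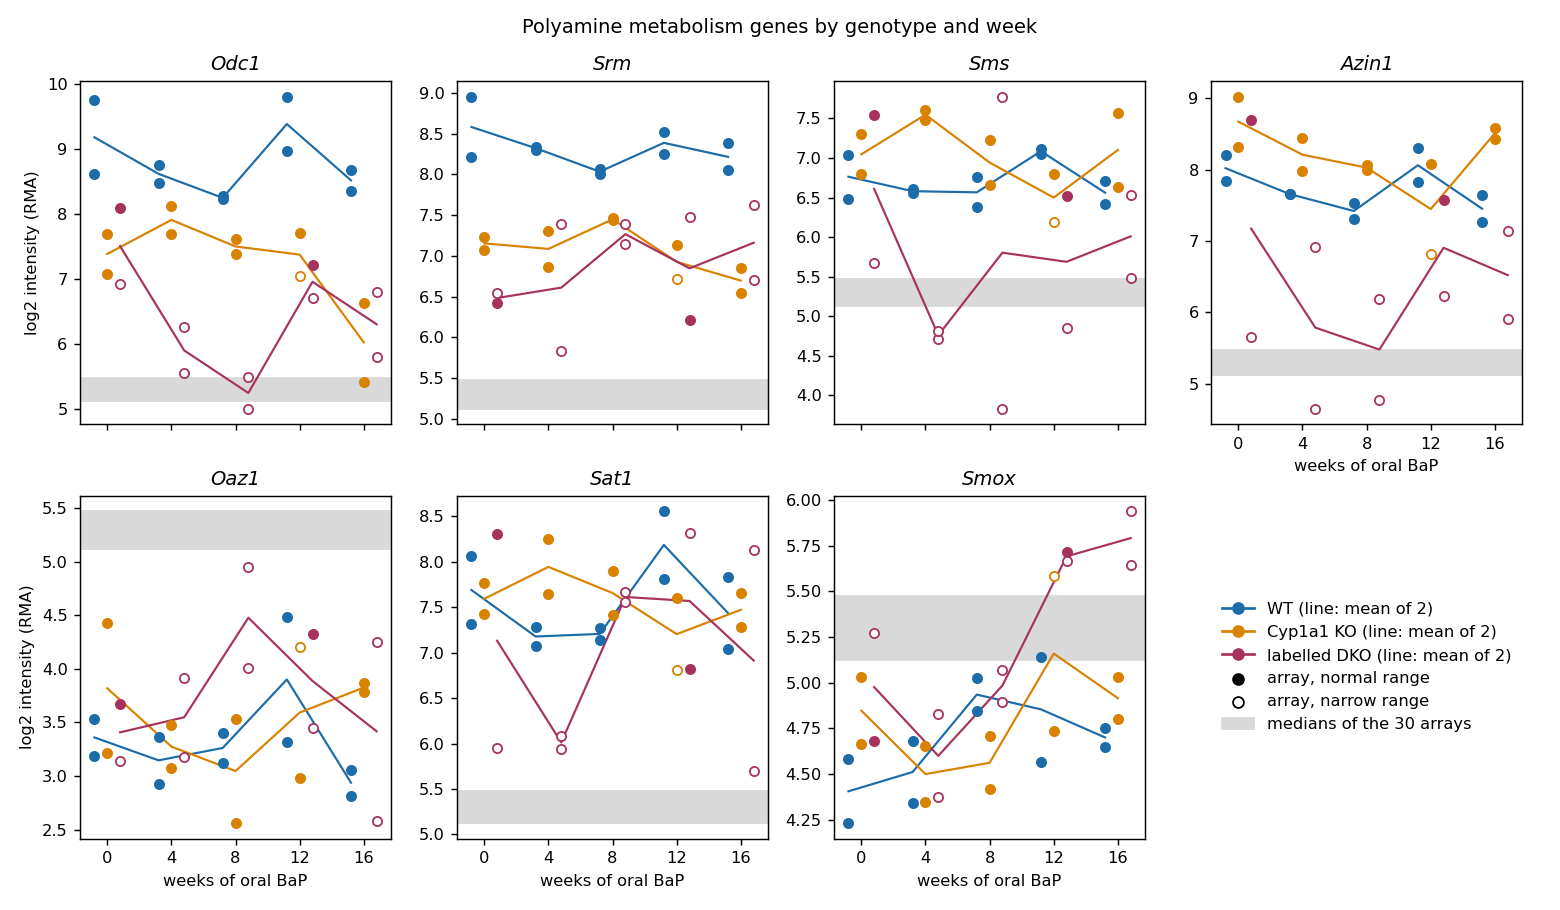
Log2 intensity of the 7 measured polyamine genes (vertical axes, scaled per gene) against weeks of oral BaP, with 1 point per array, filled for normal-range and open for narrow-range arrays, a line through each genotype's mean of 2, and a grey band for the medians of the 30 arrays (5.12 to 5.47). Odc1 and Srm in WT sit above all arrays of both knockouts, Oaz1 sits below the band in every array, and the DKO points of Sms, Azin1 and Sat1 span a wider range than the WT points.

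Srm, which makes spermidine from putrescine, followed the same order of WT against the knockouts. Its WT arrays ran from 8.01 through a median of 8.28 to 8.95, the Cyp1a1 KO arrays from 6.54 through 7.10 to 7.46, and those labelled DKO from 5.83 through 6.92 to 7.62. WT stood above both knockouts with no overlap, and the knockouts overlapped each other. Srm averaged 8.31 ± 0.28, 7.06 ± 0.31 and 6.87 ± 0.61 (SD, n = 10 each). Cyp1a1 KO minus WT was -1.25 (2.37-fold linear), and by week -1.43, -1.24, -0.58, -1.46 and -1.52 from week 0 to week 16. Odc1 and Srm were the members whose Cyp1a1 KO arrays all lay below all WT arrays. That held for 1.3% of all genes (244 of 18784), a share from which nothing is read because the list was made with this contrast in view.

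Sms, which converts spermidine to spermine, did not share this pattern. It ran from 6.38 through 6.65 to 7.11 in WT, from 6.19 through 7.02 to 7.61 in Cyp1a1 KO, and from 3.83 through 5.58 to 7.78 in arrays labelled DKO. The WT and Cyp1a1 KO arrays overlapped, and the DKO arrays spread below and above both. Cyp1a1 KO exceeded WT by 0.32, with no test.

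Among the genes that control ornithine decarboxylase, Azin1 was somewhat higher in Cyp1a1 KO than in WT, by 0.45. Its arrays ran from 7.27 through 7.66 to 8.30 in WT, from 6.82 through 8.20 to 9.03 in Cyp1a1 KO and from 4.65 through 6.21 to 8.70 in those labelled DKO. The lowest Cyp1a1 KO value, 6.82, belonged to the narrow-range array, and without that array the difference was 0.58. Oaz1 gave low signal throughout: WT arrays read 2.82 to 4.48, Cyp1a1 KO arrays 2.56 to 4.43 and DKO arrays 2.58 to 4.95. All 30 values lay below the median of their own array, and the gene's mean stood at the 8.10 percentile of all genes. Cyp1a1 KO exceeded WT by 0.19, and the arrays overlapped.

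The breakdown genes were close between WT and Cyp1a1 KO in their means over the 5 weeks, though not at each week. Sat1, the acetyltransferase, ran from 7.04 through 7.30 to 8.56 in WT and from 6.81 through 7.62 to 8.25 in Cyp1a1 KO, a difference in means of 0.03. Smox, the spermine oxidase, ran from 4.23 through 4.67 to 5.14 in WT and from 4.35 through 4.72 to 5.58 in Cyp1a1 KO, a difference of 0.12. By week, Cyp1a1 KO minus WT ran from -0.98 (week 12) to 0.77 (week 4) for Sat1. For Smox it ran from -0.37 (week 8) to 0.44 (week 0). In arrays labelled DKO, Sat1 spread from 5.70 through 7.19 to 8.32 and Smox from 4.37 through 5.17 to 5.94. Of the 7 measured genes, 2 were lower and 5 higher in Cyp1a1 KO by their means, and the median difference was 0.12 beside 0.10 over all genes.

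The arrays labelled DKO were tested against WT over the 5 weeks with limma, which fitted a mean for each of the 15 groups over all genes, with p adjusted by Benjamini-Hochberg and a gene called at an adjusted p under 0.05. Errors given with tests are standard errors. This comparison called 74.6% of all genes, and 31% of all genes as lower, so a call in it says little about any gene in particular. Odc1 is described here without a test, because the WT arrays served to choose the genes. Of the other 6 measured polyamine genes, 4 were called, 3 of them lower.

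The mean of Odc1 in arrays labelled DKO lay below WT by a log2 difference of -2.40 (5.29-fold linear). Srm was called lower (-1.43 ± 0.20, 2.70-fold linear, limma adjusted p = 2.87e-06). All 10 DKO arrays lay below all WT arrays for both genes, as they did for 7.82% of all genes. Without the narrow-range arrays, which leaves 1 DKO array at week 0 and 1 at week 12, the Odc1 difference was -1.63, and Srm was still called lower (-2.16, limma adjusted p = 2.66e-06). With label number range (1 to 20 or 22 to 33) as a block, Odc1 was at -1.58 and Srm at -1.30 (limma adjusted p = 0.154), which was not called. The block effect rests on the groups with arrays of both ranges, Cyp1a1 KO week 12 and DKO week 0. In each, the array of the higher number was narrow-range and the other was not, so block and narrow range cannot be told apart.

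Azin1 (-1.35 ± 0.34, limma adjusted p = 0.00120) and Sms (-0.94 ± 0.35, limma adjusted p = 0.0214) were also called lower in arrays labelled DKO than in WT. Both calls went with the narrow-range arrays: without these the differences were 0.096 for Azin1 and 0.11 for Sms. Sms also lost its call when any of the DKO arrays of week 0, 8 or 16 replicate 2 or week 12 replicate 1 was left out (-0.83 to -0.54, limma adjusted p 0.0502 to 0.0612). The DKO array of week 0 with a normal range read 8.70 for Azin1 and 7.55 for Sms, above every WT array for both genes. Smox was called higher by 0.53 ± 0.14 (limma adjusted p = 0.00249), and by 0.57 without the narrow-range arrays (limma adjusted p = 0.0293). Smox signal was low: it lay below its array's median in 10 of 10 WT, 9 of 10 Cyp1a1 KO and 6 of 10 DKO arrays. Oaz1 (0.43, limma adjusted p = 0.121) and Sat1 (-0.49, limma adjusted p = 0.136) were not called. Sat1 passed when DKO week 0 replicate 1 (-0.73, limma adjusted p = 0.0163) or week 16 replicate 1 (-0.73, limma adjusted p = 0.0173) was left out, and Oaz1 without the latter (0.59, limma adjusted p = 0.0285). The median difference of the 7 genes was -0.94, beside 0.20 over all genes tested. After quantile normalization none of the 6 tested genes was called by limma: Srm stood at -0.51 (adjusted p = 0.107), Azin1 at -0.87 (adjusted p = 0.0789), Sms at -0.78 (adjusted p = 0.173) and Smox at 0.19 (adjusted p = 0.354). Odc1 was then at -1.74. With the number block Azin1 (0.59), Sms (0.18) and Smox (-0.12) turned sign, as did the uncalled Sat1 (0.93).

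**Figure D2:**
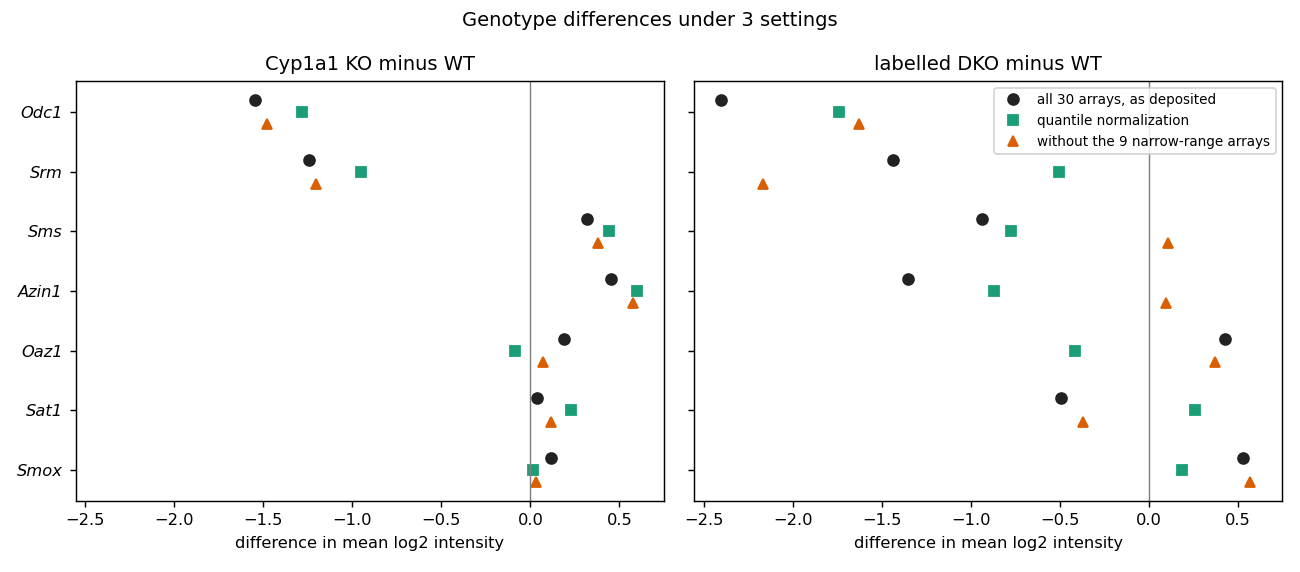
Differences in mean log2 intensity from WT for the 7 measured genes in Cyp1a1 KO (left) and in arrays labelled DKO (right), from all 30 arrays, after quantile normalization and without the 9 narrow-range arrays. Odc1 and Srm lie left of 0 at all 3 settings in both panels, while Sms and Azin1 cross to the right of 0 in the DKO panel without the narrow-range arrays.

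Between the knockouts, the mean of Odc1 in arrays labelled DKO differed from that in Cyp1a1 KO by -0.85, given without a test because the Cyp1a1 KO arrays served to choose the genes. The difference sat at weeks 4 and 8 (-2.01 and -2.25), where all 4 DKO arrays were narrow-range. It was 0.28 at week 16, where both DKO arrays were narrow-range too, and 0.12 at week 0 and -0.42 at week 12, where 1 of 2 was. Of the other 6 genes, limma called Azin1 (-1.80 ± 0.34, adjusted p = 0.000206) and Sms (-1.25 ± 0.35, adjusted p = 0.00504) lower and Smox (0.41 ± 0.14, adjusted p = 0.0182) higher. The comparison called 59.8% of all genes, 25.8% of all genes as lower. Srm did not differ detectably (-0.19, 95% interval -0.59 to 0.22, limma adjusted p = 0.408), although without the narrow-range arrays it was called lower (-0.82, limma adjusted p = 0.0248). Without those arrays the other calls were lost, with Azin1 at -0.24, Sms at 0.11 and Smox at 0.41 (limma adjusted p = 0.246). Smox was also not called without Cyp1a1 KO week 12 replicate 1 (limma adjusted p = 0.0506) or after quantile normalization (0.17, limma adjusted p = 0.436), which also turned Srm to 0.44 (limma adjusted p = 0.187). Sat1 was called lower without DKO week 0 replicate 1 (-0.76, limma adjusted p = 0.0153) or week 16 replicate 1 (-0.77, limma adjusted p = 0.0184).

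The change during BaP was tested within each genotype, as the mean of weeks 4 to 16 and as week 16, each against week 0. No polyamine gene was called in any of these 6 comparisons. In WT, 0% of genes were called in either comparison (154 and 227 genes at an unadjusted p under 0.05). In Cyp1a1 KO it was again 0% in both (258 and 217 genes unadjusted). In arrays labelled DKO, 0.974% were called over weeks 4 to 16 and 4.04% at week 16 by limma. Data were simulated with the groups of this design, a single spread per gene in all groups and no narrow-range arrays. There the DKO test over weeks 4 to 16 recovered 17% of log2 changes of 1 and 82% of log2 changes of 2. These shares need not hold for the DKO arrays, whose own spread was not simulated.

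Odc1 came nearest in the arrays labelled DKO. From 8.09 and 6.92 at week 0 it went to between 5.005 and 7.21 on BaP, a mean change of -1.40 ± 0.38 (limma adjusted p = 0.0735, 95% interval -2.20 to -0.61). The result depended on a few arrays. Without DKO week 0 replicate 2 the change was -1.99 (limma adjusted p = 0.0214), and without DKO week 0 replicate 1 it was -0.82 (limma adjusted p = 0.390). Without the narrow-range arrays it was -0.88 (limma adjusted p = 0.381). Without either Cyp1a1 KO week 12 array it passed (limma adjusted p = 0.0474 each). A limma fit of the DKO groups alone, which does not share the spread of the other genotypes, gave an adjusted p of 0.851. In WT the Odc1 change was -0.49 (95% interval -1.28 to 0.31) and in Cyp1a1 KO -0.18 (95% interval -0.98 to 0.61). The DKO change differed from the Cyp1a1 KO change by -1.22 (limma adjusted p = 0.650) and from the WT change by -0.91 (limma adjusted p = 0.992). WT and Cyp1a1 KO arrays served to choose the genes, so for Odc1 these comparisons are not independent of the choice. These tests of the difference called 0.0426% and 0.0373% of all genes, and the one between Cyp1a1 KO and WT called 0% (101 genes at an unadjusted p under 0.05), with no polyamine gene in any of them.

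At week 16 alone, Odc1 in Cyp1a1 KO stood at -1.36 against week 0 and was not called. The Cyp1a1 KO arrays served to choose the genes, so this value is a description. The 2 arrays of week 16, 6.63 and 5.41, were below the 8 other Cyp1a1 KO arrays, the lowest of which read 7.04. In arrays labelled DKO at week 16, Odc1 stood at -1.20 (limma adjusted p = 0.145) and Smox at 0.81 (limma adjusted p = 0.139) against week 0. Smox read 4.68 and 5.27 at week 0, 5.66 and 5.72 at week 12, and 5.64 and 5.94 at week 16, so the late arrays lay above the early ones. Without DKO week 0 replicate 2, Odc1 (-1.79, limma adjusted p = 0.0318), Smox (1.11, limma adjusted p = 0.0454) and Azin1 (-2.17, limma adjusted p = 0.0447) all passed the threshold at week 16. Azin1 then also passed over weeks 4 to 16 (-2.52, limma adjusted p = 0.0246). Without the other week 0 array, replicate 1, none of these passed: at week 16 Odc1 was at -0.62 (limma adjusted p = 0.614), Smox at 0.52 (limma adjusted p = 0.511) and Azin1 at 0.87 (limma adjusted p = 0.587), and over weeks 4 to 16 Azin1 was at 0.52 (limma adjusted p = 0.716). The direction of the Azin1 change thus turned on which of the DKO arrays of week 0, at 8.70 and 5.65, stood for the start.

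**Figure D3:**
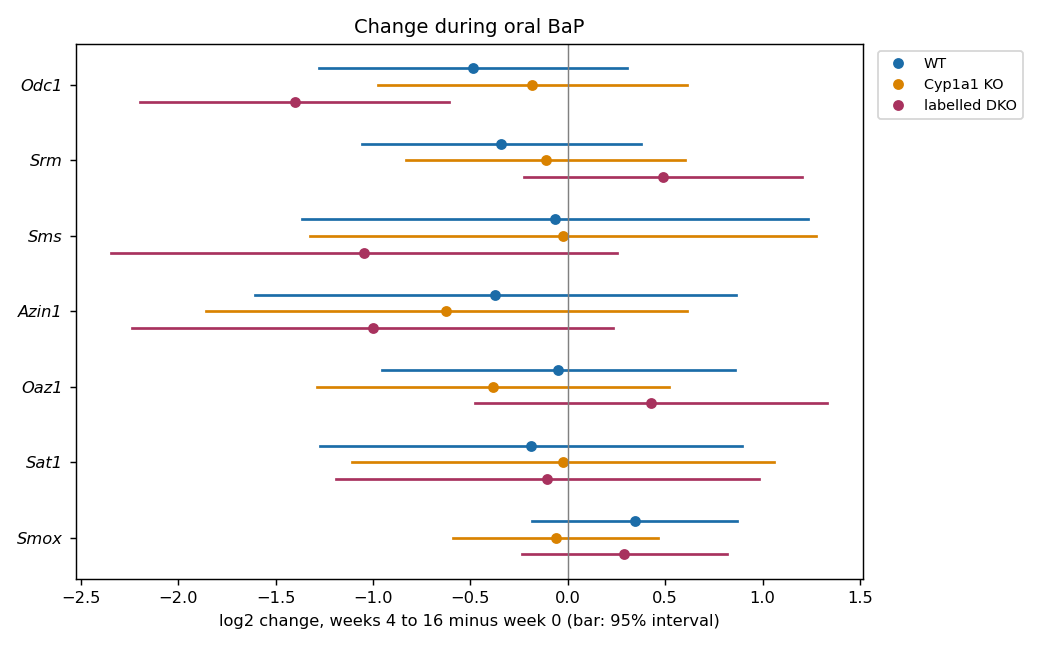
Change in log2 intensity from week 0 to the mean of weeks 4 to 16 for each measured gene in WT, Cyp1a1 KO and arrays labelled DKO, as points with 95% intervals from the limma fit. The interval of Odc1 in arrays labelled DKO, -2.20 to -0.61, leaves out 0, and the adjusted p of that change is 0.0735.

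The wider pathway was read through 5 lists of supply, salvage, control, transport and target genes, 36 of whose 41 genes were measured. In WT and Cyp1a1 KO no gene of these lists was called during BaP. Against WT, the arrays labelled DKO had 23 of the 36 called, beside 74.6% of all genes. Of the 18 called genes named below, 17 lost the call with label number range as a block and 7 of these changed sign, while Oat kept it. After quantile normalization 7 lost it, and 5 without the narrow-range arrays. The block rests on the arrays of Cyp1a1 KO week 12 and DKO week 0 alone, so it is no separate check from the narrow range.

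In the arginine and ornithine supply list, 2 of 10 genes were called higher and 4 lower in arrays labelled DKO than in WT. Oat, the ornithine aminotransferase that moves ornithine toward glutamate and proline, was lower (-1.99 ± 0.18, limma adjusted p = 3.49e-08). Asl, which releases arginine in the urea cycle, stood at -1.37 (limma adjusted p = 4.35e-07), and Slc25a15, the mitochondrial ornithine carrier, at -0.83 (limma adjusted p = 2.10e-05). DKO and WT arrays did not overlap for any of these. With the number block Asl was at -0.95 (limma adjusted p = 0.182) and Slc25a15 at -0.63 (limma adjusted p = 0.343). Otc, which uses ornithine for the urea cycle, was called higher by 1.37 (limma adjusted p = 1.28e-05), but its WT mean was 2.74 and its DKO mean 4.11, both below every array's median. Without the narrow-range arrays Otc was at 0.37 (limma adjusted p = 0.0784), and with the number block at -0.053. Oat was also called during BaP in arrays labelled DKO, at -1.53 ± 0.32 over weeks 4 to 16 (limma adjusted p = 0.0237) and -1.48 at week 16 (limma adjusted p = 0.0453). Neither call held after quantile normalization (limma adjusted p = 0.0551 and 0.149), in a fit of the compared groups alone (limma adjusted p = 0.670 and 0.925), nor without DKO week 0 replicate 2 (-1.31 with adjusted p = 0.0587 and -1.27 with adjusted p = 0.0744 by limma). The week 16 call was also lost without DKO week 0 replicate 1 (-1.69) or DKO week 16 replicate 1 (-1.08), or any 1 of the WT arrays (adjusted p 0.0558 to 0.0619 by limma) or of the Cyp1a1 KO arrays of weeks 4, 8 and 16 (0.0543 to 0.0602).

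In the list for S-adenosylmethionine supply and salvage of methylthioadenosine, the by-product of spermidine and spermine synthesis, 2 of 9 measured genes were called higher and 3 lower. Adi1, an enzyme of the salvage route, was at -1.75 ± 0.21 (limma adjusted p = 5.58e-07 against WT), and Mtap, its first enzyme, at -1.30 (limma adjusted p = 4.14e-05). Mat1a (1.08, with WT and DKO means of 3.57 and 4.65, below every array's median) was called higher and Mat2b (-0.85) lower. These encode a catalytic and a regulatory subunit of methionine adenosyltransferase. After quantile normalization both lost the call, with Mat1a at 0.37 (limma adjusted p = 0.234) and Mat2b at -0.17 (limma adjusted p = 0.643). With the number block Adi1 was at -0.80 (limma adjusted p = 0.377) and Mtap at 0.19 (limma adjusted p = 0.873). Adi1 was also called in arrays labelled DKO at week 16 (-2.12 ± 0.46, limma adjusted p = 0.0151). That call was lost in a fit of the compared groups alone (limma adjusted p = 0.896), without DKO week 0 replicate 1 (-1.58, limma adjusted p = 0.124) and without DKO week 16 replicate 1 (-1.28, limma adjusted p = 0.194). Without the narrow-range arrays, Mat2b was at -0.035 between DKO and WT and lost its call.

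Other polyamine enzymes and controls lay higher in arrays labelled DKO than in WT for all 6 measured, 5 of them called. Oaz3 (1.07), an antizyme of the testis, and Oaz2 (0.84), another antizyme, were among them, with Satl1 (0.85) and Agmat (0.45). Their WT means were 3.87, 5.64, 3.38 and 5.13, with those of Oaz3 and Satl1 below every array's median. Satl1 (0.025, limma adjusted p = 0.940) and Agmat (0.37, limma adjusted p = 0.132) lost the call after quantile normalization. With the number block Oaz2, Satl1 and Agmat changed sign, and Oaz3 was at 0.32 (limma adjusted p = 0.737). In the transport list, 1 of 7 was called higher and 4 lower. Slc3a2, the heavy chain of amino acid transporters that has also been tied to polyamine export, was lower with no overlap of arrays (-2.43 ± 0.20, limma adjusted p = 8.77e-09), and with the number block it was at -1.11 (limma adjusted p = 0.0851). Cav1 (-1.14), Atp13a3 (-0.94), a P-type ATPase that carries polyamines, and Slc18b1 (-0.75), a vesicular polyamine transporter, lost their calls without the narrow-range arrays, and Cav1 and Atp13a3 also after quantile normalization. Spermidine also serves to modify eIF5A, and of 4 genes for eIF5A and its hypusine modification Eif5a2 was called higher (0.50) and Dhps, which transfers the group from spermidine, lower (-0.44). Eif5a2 lost its call after quantile normalization (0.36, limma adjusted p = 0.187), and both lost it with the number block (limma adjusted p = 0.706 and 0.588).

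**Figure D4:**
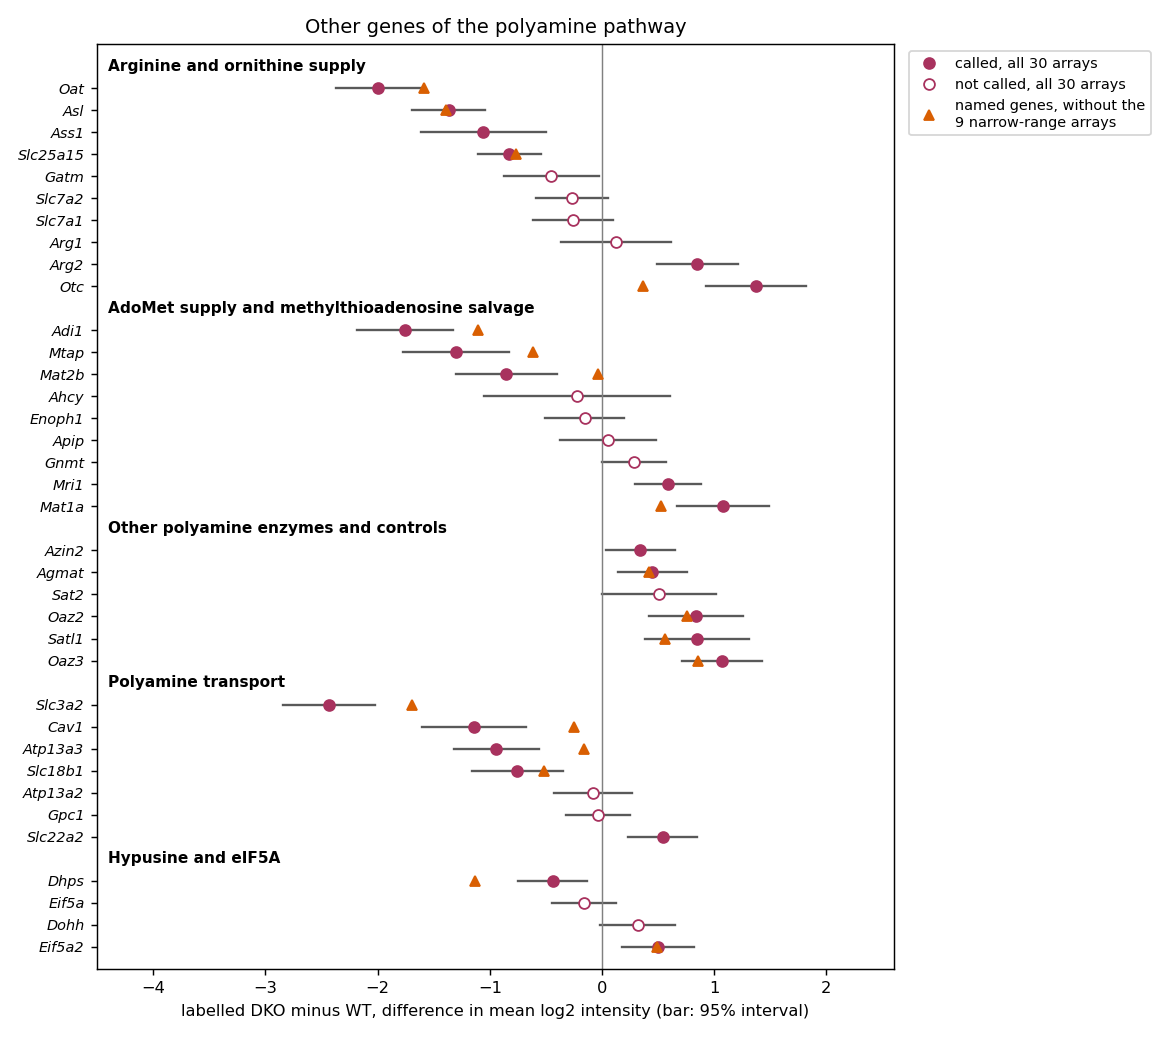
Difference in mean log2 intensity between arrays labelled DKO and WT for the 36 measured genes of the 5 further lists, as points with 95% intervals, filled where called, with triangles for the named genes without the 9 narrow-range arrays. Oat, Asl and Slc3a2 stay left of 0 under both settings, while Mat2b, Cav1 and Atp13a3 move close to 0.

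Against Cyp1a1 KO, 19 of the 36 genes were called in arrays labelled DKO, beside 59.8% of all genes. Adi1 (-1.76), Slc3a2 (-1.45), Atp13a3 (-1.37) and Oat (-1.28) were called lower, and Otc (1.05) and Oaz3 (0.78) higher. Otc and Oaz3 averaged 3.06 and 4.16 in Cyp1a1 KO, below every array's median. None of the 4 hypusine genes was called. The calls of these 36 genes against Cyp1a1 KO were not recomputed under the alternative settings.

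By the rule fixed for likeness, the 5 genes whose values over the 20 WT and Cyp1a1 KO arrays had the highest Pearson correlation with Odc1 were Mecr (r = 0.961), Gins2 (0.957), Wdr74 (0.951), Igfbp2 (0.949) and Gstp1 (0.946). The arrays share the difference between genotypes, which raises such a correlation. Within the 10 WT arrays alone r was 0.952, 0.951, 0.953, 0.883 and 0.940 in that order, and within the 10 Cyp1a1 KO arrays 0.884, 0.856, 0.885, 0.890 and 0.849. Gins2 encodes a subunit of a DNA replication complex, Mecr a mitochondrial fatty acid synthesis enzyme and Gstp1 a glutathione transferase. The genes were picked on these same arrays, so a high r within a genotype follows in part from the choice. In WT, Odc1 was highest at week 0 replicate 2 (9.74) and week 12 replicate 1 (9.80), and r without these was not computed. No test was made of these correlations.

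Cell type markers also differed between genotypes, and in bulk samples fewer cells of a type and less RNA per cell cannot be told apart. The mean log2 intensity of 13 sebocyte markers ran from 8.10 to 8.38 in WT arrays, from 7.42 to 8.09 in Cyp1a1 KO and from 5.75 to 7.54 in those labelled DKO, so the WT arrays lay above all others here too. In Cyp1a1 KO, 10 of the 13 were lower than in WT (median -0.56). In DKO, 10 of the 13 were called lower than in WT and 2 higher. Of 10 basal keratinocyte markers, 5 were called lower and 2 higher in DKO than in WT. Basal keratinocyte markers spanned 7.39 to 7.91 in WT arrays, 6.77 to 7.51 in Cyp1a1 KO arrays and 6.75 to 8.64 in DKO arrays, with 9 of 10 lower in Cyp1a1 KO than in WT. Cornified keratinocyte markers ran from 5.49 to 6.40, from 6.02 to 6.72 and from 6.62 to 9.62 in the same order, and 7 of 9 were called higher in DKO than in WT. Neutrophil markers ran from 3.96 to 4.52, from 4.33 to 5.41 and from 4.60 to 6.72. Of these, 8 of 10 were called higher in DKO than in WT and 1 lower. In WT, 11 of the 13 sebocyte markers averaged above the array medians, among them Awat2 (10.96), while Awat1 (3.79) and Far2 (4.12) of the same list did not. Male accessory gland markers lay below the array medians in every genotype (0 of 7 above), but 7 of 7 were called higher in DKO than in WT (median 1.39) and 7 of 7 higher than in Cyp1a1 KO (median 0.93). Their mean ran from 2.94 to 3.12 in WT arrays, from 2.96 to 3.91 in Cyp1a1 KO and from 3.38 to 4.78 in DKO. Muscle markers (7 of 10, median 0.71) and lymphocyte markers (5 of 8, median 0.77) were also called higher in DKO than in WT. Most of these gave low signal. In WT 3 of 10 muscle, 2 of 8 lymphocyte and 2 of 10 neutrophil markers averaged above the array medians, and in DKO 3, 4 and 4. Of macrophage markers 3 of 9 were called higher in DKO than in WT and 1 lower. Of fibroblast markers it was 4 of 10 and 2, and of fat cell markers 0 of 7 and 1. Beside these counts, DKO against WT called 74.6% of all genes, 31% of all genes as lower. DKO against Cyp1a1 KO called 59.8% of all genes, 25.8% of all genes as lower. The marker calls were not recomputed without the narrow-range arrays or after quantile normalization. The part of these marker differences in the levels of Odc1, Srm and the other polyamine genes was not tested.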

How the data were processed

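RNA from preputial glands of 2 mice per group was amplified, labelled with biotin and hybridised to 1-colour arrays, per the labels' protocols. As deposited, each probe set has a log2 intensity that the authors made with RMA (background correction, quantile normalization and probe summary), per the submitters' processing notes, with no version given, and it was used unchanged. Of 21212 probe sets, 18786 carried 1 symbol in the platform table, 6 several and 2420 were not listed. The probe set with the highest mean stood for a gene, giving 18784 genes, with no filter on low values. Amd1 and 5 genes of the other pathway lists were not analysed here. Precision is limited by the 2 arrays of each group, and p-values measure the spread between these mice.

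A single model with a mean for each of 15 groups was fitted with limma (version 3.58.1, R 4.3.3; residual degrees of freedom 15, prior 6.91), for 11 tested comparisons, with no test of Odc1 levels between genotypes because the genes were chosen on its levels in WT and Cyp1a1 KO, two-sided, adjusted by Benjamini-Hochberg over all genes and called under 0.05. On simulated data the comparison of DKO with WT recovered 78% of changes of 1 and 99% of changes of 2 on the log2 scale. The simulation used a single spread per gene in all groups and no narrow-range arrays, so these shares need not hold for DKO arrays.

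The members, lists, tests and alternatives were chosen with earlier results of these data known. Named were all members, the called genes of each other list (at most 4 per list by smallest adjusted p), and the 5 genes most like Odc1 by Pearson correlation over WT and Cyp1a1 KO arrays. Azin1 and Srm had no promoter window here. Alternatives were quantile normalization, median centring, a filter on low values, a trended robust variance model, array weights, fits with only the compared groups, a replicate block, mean of probe sets, label number range as a block or alone, no narrow-range arrays, and leaving out each array in turn.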

Additional observations from a re-analysis of the deposited data

How the results depend on the processing

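Odc1 and Srm stayed below WT in Cyp1a1 KO and in arrays labelled DKO under all alternatives run, though calls were lost. Median centring, the low-value filter (which drops Oaz1), the trended robust model, mean of probe sets and fits of only the compared groups changed no member's call between DKO and WT. Between DKO and Cyp1a1 KO, Smox lost its call with quantile normalization (0.17), median centring (0.31), array weights or only the compared groups (adjusted p 0.0526 to 0.436 by limma). Members called between DKO and WT, Odc1 not tested, fell from 4 to 0 after quantile normalization and with the label number block, 1 within numbers 1 to 20 and 2 without the narrow-range arrays. Between DKO and Cyp1a1 KO they fell from 3 to 0 with that block and within numbers 1 to 20 or 22 to 33, and to 1 without the narrow-range arrays. Leaving out 1 array gave 0 to 2 members called over weeks 4 to 16 in DKO, and 0 to 3 at week 16. Among the called values recomputed and the Odc1 differences, directions reversed as follows, and the cause was not tested. The number block rests on Cyp1a1 KO week 12 and DKO week 0, the groups with arrays of both ranges. With the number block, DKO minus WT became 0.59 for Azin1, 0.18 for Sms, -0.12 for Smox, 0.19 for Mtap, -0.053 for Otc, -0.41 for Oaz2, -0.42 for Satl1, -0.23 for Agmat, 0.12 for Atp13a3 and 0.26 for Slc18b1, and DKO minus Cyp1a1 KO became -0.16 for Smox. Within numbers 1 to 20 (week 0 only, with 1 DKO array), DKO minus WT was 0.67 for Azin1, 0.78 for Sms, 0.16 for Mat2b and 0.26 for Atp13a3. There DKO minus Cyp1a1 KO was 0.71 for Odc1, 0.023 for Azin1, 0.50 for Sms and -0.16 for Smox. Within numbers 22 to 33 (week 12 only, with 1 Cyp1a1 KO array) DKO minus Cyp1a1 KO was 0.090 for Azin1. Without the narrow-range arrays, DKO minus WT was 0.096 for Azin1 and 0.11 for Sms, and DKO minus Cyp1a1 KO 0.10 for Odc1 and 0.11 for Sms. Among values that were not called, DKO minus WT turned for Sat1 (-0.49) to 0.26 after quantile normalization, 0.93 with the number block and 0.62 within numbers 1 to 20, and for Oaz1 (0.43) to -0.41 after quantile normalization. DKO minus Cyp1a1 KO turned for Srm (-0.19) to 0.44, for Sat1 (-0.53) to 0.033 and for Oaz1 (0.24) to -0.33 after quantile normalization. Over weeks 4 to 16 in DKO, Azin1 turned from below 0 to 0.52 and Sat1 to 1.07 within numbers 22 to 33, which hold 1 DKO array of week 0. Other uncalled values also turned. Sms between DKO and WT lost its call without any of 4 DKO arrays (week 0, 8 or 16 replicate 2, week 12 replicate 1; adjusted p 0.0502 to 0.0612 by limma). Genes called over weeks 4 to 16 in DKO (183) ranged from 105 to 1508 with 1 array left out and from 2 to 1482 otherwise. At week 16 (759) they ranged from 194 to 3393 and from 5 to 1628. Between DKO and WT (14011) the other settings gave 160 to 14121, and between DKO and Cyp1a1 KO (11229) 4 to 11396. Same-numbered replicates shared only a number (median correlation of deviations -0.02), and the replicate block changed no member's call (Srm DKO minus WT -1.43, limma adjusted p = 4.85e-06). It took Oat at week 16 in DKO to an adjusted p of 0.0545 by limma.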

Other observations

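Within WT glands, the same pair of arrays, week 0 replicate 2 and week 12 replicate 1, carried the highest values of Odc1 (9.74 and 9.80), of Azin1 (8.20 and 8.30) and of Sat1 (8.07 and 8.56). Oaz1 was also highest there, at 3.53 and 4.48. Their replicates read 8.60 and 8.96 for Odc1, 7.84 and 7.83 for Azin1, and 7.31 and 7.81 for Sat1. The cornified keratinocyte markers of these arrays averaged 5.49 and 5.88, the lowest of the 10 WT arrays, whose highest was 6.40. Smox read 4.58 and 4.57 there, within a WT range of 4.23 to 5.14. These arrays also had the widest ranges of values of all 30 arrays (standard deviations of 2.08 and 2.00) and the lowest medians (5.12 and 5.18). The pattern was noticed after the values were seen, and its cause was not tested.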
